A study of Mus musculus with 24 samples.

Results

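Protocadherins are the largest subgroup of the cadherin family of adhesion molecules. They were measured here in the hippocampus of C57Bl/6 mice with 60-base microarray probes, taken as all probes whose gene name in the scanner files begins with Pcdh. There were 76 such probes among 41174 on the array, and 75 of them exceeded background clearly, by the scanner's own call, on 4 or more of the 24 arrays and were kept, of 38768 kept in all. They carry 47 gene names, of 27827 on the array. The remaining probe, named AK029749, lies on the strand opposite to the Pcdhb genes and was well above background on 0 arrays. The 75 probes comprised 45 of the clustered genes on chromosome 18 (6 for Pcdha, 28 for the 22 genes of Pcdhb, 11 for Pcdhg) and 30 of 14 nonclustered genes, and 65 of them were well above background on all 24 arrays.

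Each clustered Pcdha and Pcdhg isoform is made from a variable exon with its own promoter, spliced to constant exons shared by the whole cluster, whereas the Pcdhb genes consist of single exons without constant ones. A neuron chooses a few of these promoters, by a process that involves DNA methylation, CTCF and cohesin, and the resulting set of surface proteins lets neurites recognise and avoid their own kind. The nonclustered genes are transcribed singly, and several of them, such as Pcdh8, Pcdh9, Pcdh10, Pcdh17 and Pcdh19, encode delta-protocadherins that act in cell sorting, axon growth and synapses of the forebrain.

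The 6 groups held 4 mice each, with 1 array per mouse. Young mice, aged 3 months, were fear-conditioned (3 min in a new chamber, then a foot shock of 0.7 mA for 2 s), placed in the chamber with no shock (context), shocked at once on entry and left to explore afterwards (shock-context), or handled as controls. Old mice, aged 16 months, were fear-conditioned or handled as controls. Tissue was taken 1 h after exposure, and the whole hippocampus was used, so fewer cells of a type and less RNA per cell cannot be told apart.

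The 16 fear and control arrays were scanned in a first run, in which the 75th percentile of signal was 757 to 2137 and 86.6 to 94.0% of probes were well above background. A second run held the other 8 arrays, of context and shock-context mice, with values of 3101 to 8369 and 75.5 to 81.7%. Run and group cannot be told apart where a second-run group is compared with controls. With 4 arrays a group, precision is limited by their number. Of 17 measured markers of hippocampal excitatory neurons, 17 were well above background on all 24 arrays. So were 7 of 7 measured neocortex markers and 29050 of all probes, so this count does not identify the tissue. Levels below are log2 signal minus the 75th percentile of the same array, changes are differences of group means of these levels with the SE of the fit, and adjusted p-values are from limma with Benjamini-Hochberg adjustment over all kept probes, at a threshold of 0.05.

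The nonclustered genes Pcdh9 and Pcdh17 have several probes each, and these probes moved in opposite directions. The first 30 bases of the 5 probes that passed the threshold in young fear mice are shown, 5′ to 3′ in the sense of the transcript, so that the stretch measured by each can be identified.
Pcdh9 probe 2: atacaatgctttgcagcataagagagaaaa
Pcdh9 probe 3: gctgagtaactcacaaactgaaactattgt
Pcdh9 probe 5: gtaatcacagtgacagacgaagacgctgga
Pcdh17 probe 1: aagaggttctgattttaatgaaagtgtcct
Pcdh17 probe 2: tccaagctacaccaaacattaacccatatt
In mm9 coordinates the whole Pcdh9 probes lie on the minus strand of chromosome 14. Probe 5 is at chr14:94286116-94286175, probe 3 at chr14:94282644-94282703 and probe 2 at chr14:93414527-93414586. The Pcdh17 probes lie on the plus strand of the same chromosome, probe 1 at chr14:84877710-84877769 and probe 2 at chr14:84933861-84933920. The files' annotation lists cDNA clones for Pcdh9 probe 3 and Pcdh17 probe 1 and RefSeq transcripts for the other 3. Exon and UTR boundaries were not used here.

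Fear conditioning in young mice was set against handling in mice of the same age, to ask which genes respond to it within the hour. Of the 75 protocadherin probes, 28 passed the threshold, 17 higher and 11 lower, which is 37.3% of them beside 44.6% of all 38768 probes (17.2% higher and 27.5% lower). Among the clustered probes 10 rose and 6 fell of 45, with a median log2 change of 0.02. Among the nonclustered probes 7 rose and 5 fell of 30, with a median of 0.05. The median over all probes was -0.27. The members' share of calls was thus below that of the array, and their medians lay 0.29 and 0.32 above the array's median. The array's median depended on the processing. With quantile normalization it was -0.08 and the protocadherin calls split into 24 higher and 8 lower. With median scaling it was -0.13 and they split into 22 higher and 6 lower. After normexp background correction it was -0.50, and 9 protocadherin probes passed, 5 higher and 4 lower, beside 18.1% of all probes.

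**Figure D1:**
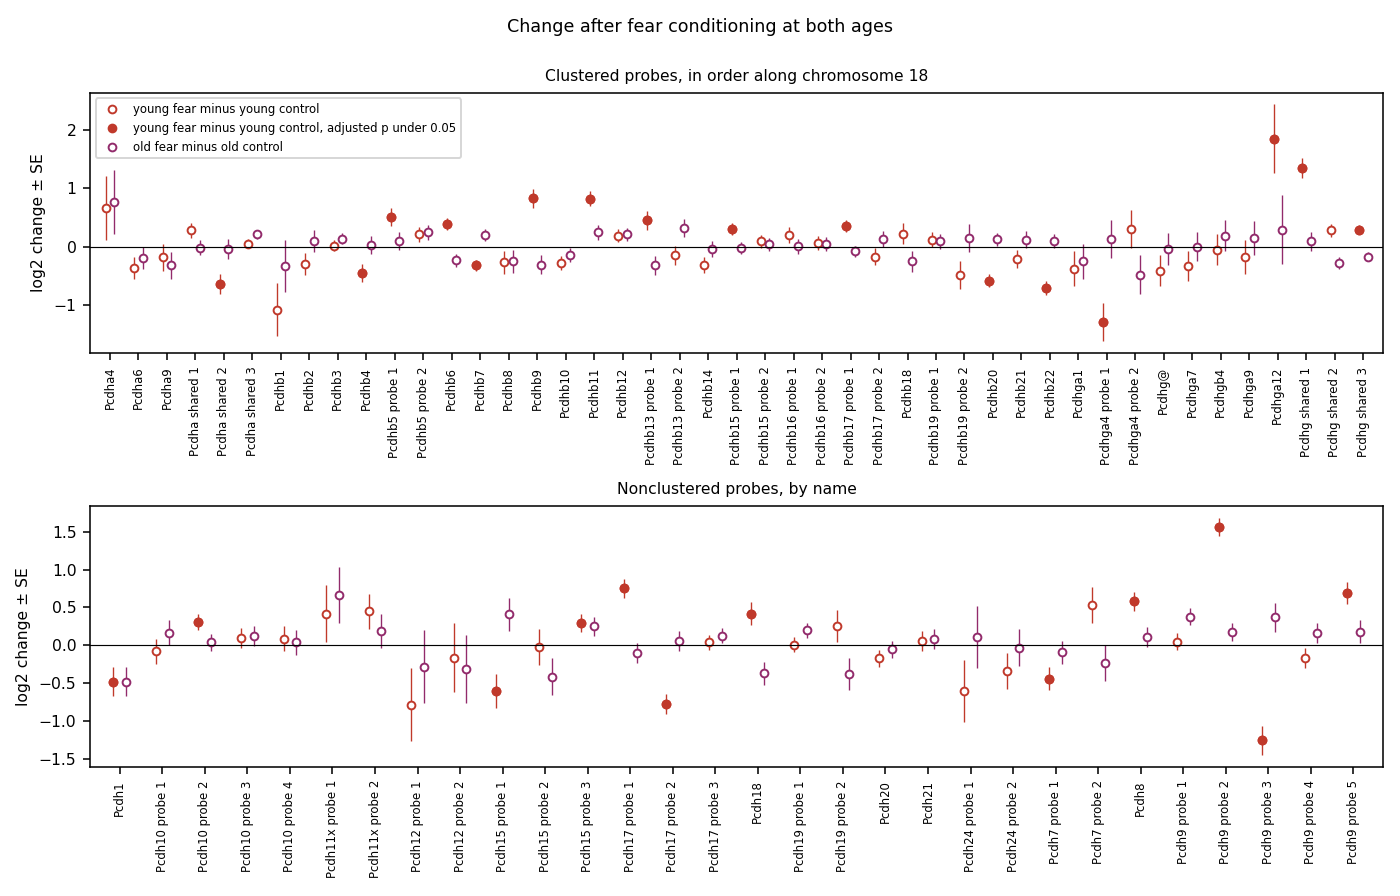
Log2 change (vertical axis, ± SE of the fit) of each kept probe in young fear minus young control (red) and old fear minus old control (purple), for the 45 clustered probes in their order along chromosome 18 (top) and the 30 nonclustered probes (bottom). Filled points passed an adjusted p of 0.05: there are 28 in young mice and 0 in old mice. Of the 28, 16 are clustered (1 in Pcdha, 11 in Pcdhb and 4 in Pcdhg) and 12 nonclustered.

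Pcdh9 had the smallest p among the members, and its own probes disagreed in direction. Pcdh9 probe 2 read -0.30, -0.30, -0.39 and -0.36 in young fear mice, against -1.73, -1.91, -2.30 and -1.65 in young controls. All 4 fear arrays lay above all 4 control arrays, and the change was 1.56 ± 0.12 (adjusted p = 4.05e-09), or 2.95-fold higher. It was 1.83 above the median of all probes. Within the 4 slides, each holding 1 array of either group, the difference was 1.30 to 1.91.

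Pcdh9 probe 3 went the other way. It read -2.70, -2.93, -2.65 and -2.66 in young fear mice, against -1.94, -1.74, -1.14 and -1.12 in young controls. The groups did not overlap, and the change was -1.25 ± 0.19 (adjusted p = 2.06e-05), 0.97 below the median of all probes. Pcdh9 probe 5 read 0.66, 0.60, 1.14 and 1.37 in young fear mice, against 0.05, 0.13, 0.42 and 0.42 in young controls. It rose by 0.69 ± 0.15 (adjusted p = 0.000633), with no overlap between the groups. The other Pcdh9 probes did not pass: probe 1 changed by 0.05 ± 0.11 (adjusted p = 0.724) and probe 4 by -0.17 ± 0.13 (adjusted p = 0.299). Probe 1 starts 1099 bases from the start of probe 2, and probe 4 lies between probes 3 and 5, 2199 and 1273 bases from their starts. The 3 passing probes passed under all 20 alternative settings that included them. Some of these settings, such as other filters, left the levels of the probes unchanged.

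**Figure D2:**
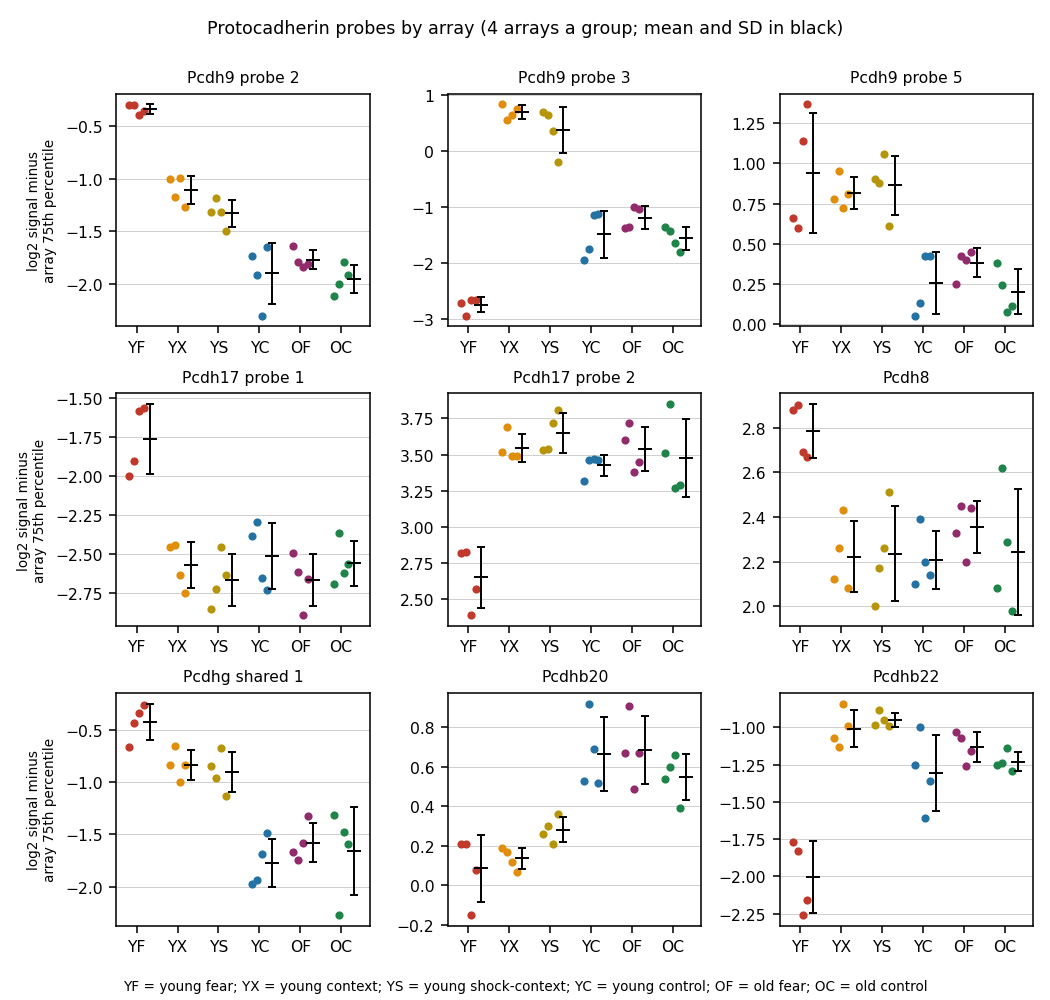
Log2 level relative to the array's 75th percentile (vertical axis) of 9 protocadherin probes on each of the 24 arrays, by group, with the group mean and SD (n = 4) in black. The young fear arrays lie above all 12 young control, old fear and old control arrays for Pcdh9 probes 2 and 5, Pcdh17 probe 1, Pcdh8 and Pcdhg shared 1, and below them for Pcdh9 probe 3, Pcdh17 probe 2, Pcdhb20 and Pcdhb22.

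Pcdh17, a delta-protocadherin that organises presynaptic terminals along corticobasal axons, had the same split. Pcdh17 probe 1 read -2.0, -1.90, -1.58 and -1.56 in young fear mice, against -2.38, -2.29, -2.65 and -2.73 in young controls. Every fear array was higher, and the change was 0.75 ± 0.13 (adjusted p = 8.86e-05), but it did not pass after normexp background correction (adjusted p = 0.409). Pcdh17 probe 2, which starts 56151 bases further along, read 2.82, 2.83, 2.39 and 2.57 in young fear mice, against 3.32, 3.46, 3.47 and 3.46 in young controls. Every fear array was lower, and the change was -0.77 ± 0.13 (adjusted p = 4.26e-05), which passed under 20 of 21 alternatives and not with the deposited values. Pcdh17 probe 3, which starts 2843 bases from probe 2, did not pass, at 0.04 ± 0.10 (adjusted p = 0.756). Opposite calls between probes of 1 gene were common on these arrays: of 3006 gene names with at least 2 called probes in this comparison, 1167 (38.8%) had calls in both directions, and so did 3 of the 4 Pcdh names, Pcdh9, Pcdh15 and Pcdh17.

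Pcdh8, known as arcadlin, is induced by synaptic activity in the rat hippocampus and pulls N-cadherin into the cell. It read 2.88, 2.90, 2.69 and 2.67 in young fear mice, against 2.10, 2.39, 2.20 and 2.14 in young controls. The groups were apart, and Pcdh8 rose by 0.58 ± 0.13 (adjusted p = 0.00125), in 4 of 4 slides and under all 21 alternative settings. In old mice the same probe read 2.33, 2.45, 2.20 and 2.44 after fear conditioning, against 2.08, 2.62, 2.29 and 1.98 in controls, and these groups overlapped. The probe is at chr14:80166728-80166787 on the minus strand.

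The calls among the remaining nonclustered genes had adjusted p-values of 0.0223 to 0.0431. Pcdh10, which takes part in the removal of excitatory synapses, rose at probe 2 by 0.31 ± 0.11 (adjusted p = 0.0223), with overlapping groups, and its other 3 probes lay between -0.08 and 0.10 and did not pass. Pcdh15, a component of hair cell tip links, was lower at probe 1 (-0.60) and higher at probe 3 (0.30). Pcdh18 was higher by 0.42, but its sign turned to -0.12 after normexp correction. Pcdh1 was lower by 0.48 (adjusted p = 0.0428) and Pcdh7 probe 1 by 0.44 (adjusted p = 0.0232). These called probes of Pcdh10, Pcdh15, Pcdh18, Pcdh1 and Pcdh7 did not pass with array pairs as a random block. Neither probe of Pcdh19, the X-linked gene of an epilepsy of females, passed (0.01 ± 0.10 and 0.26 ± 0.21), nor did Pcdh20 (-0.17 ± 0.11). The endothelial Pcdh12 had changes of -0.78 ± 0.48 at probe 1 and -0.16 ± 0.45 at probe 2, which did not pass. At Pcdh12 probe 1 the groups did not overlap. It read -3.80, -3.67, -3.69 and -3.84 in young fear mice, against -3.20, -2.72, -2.87 and -3.10 in young controls. The SE of the fit draws on all 24 arrays. Among them was 1 shock-context array at -1.44, beside -5.03, -4.83 and -4.49 in the rest of its group. Pcdh11x probe 2 had a change of 0.45 ± 0.23 (adjusted p = 0.115).

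In the clusters, 6 probes, 3 in Pcdha and 3 in Pcdhg, are annotated with transcripts of several isoforms, 5 isoform genes each, and are called shared 1 to 3 here. Their match to the constant exons was not checked against a genome. Pcdhg shared 1 read -0.66, -0.43, -0.34 and -0.26 in young fear mice, against -1.97, -1.94, -1.69 and -1.49 in young controls. The groups were far apart, and the change was 1.35 ± 0.17 (adjusted p = 1.92e-06), or 2.55-fold higher. Pcdhg shared 2 starts 1631 bases further along, and Pcdhg shared 3 starts 20 bases after it and overlaps it. Pcdhg shared 3 read 5.19, 5.07, 5.13 and 5.03 in young fear mice, against 4.97, 4.74, 4.86 and 4.67 in young controls, and rose by 0.29 ± 0.08 (adjusted p = 0.00485), but did not pass after normexp correction (adjusted p = 0.143). Pcdhg shared 2 changed by 0.28 ± 0.11 and did not pass (adjusted p = 0.0557). So 3 probes annotated with the same 5 isoform genes gave changes that differed by over 1 log2 unit. In Pcdha, shared 2 fell by 0.64 ± 0.17 (adjusted p = 0.00443, and 0.0561 after normexp correction), while shared 1 (0.28 ± 0.13) and shared 3 (0.05 ± 0.08) did not pass.

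Of the 11 other Pcdha and Pcdhg probes, 10 name a single isoform and 1 carries the cluster name Pcdhg@. Those that passed were 2, and neither was well above background on all 24 arrays. Pcdhga12 read -4.54, -4.51, -4.52 and -5.44 in young fear mice, against -5.26, -7.01, -8.95 and -5.17 in young controls. The probe was well above background in 2 of the 4 young controls. The groups overlapped, its change of 1.85 ± 0.59 (adjusted p = 0.0152) became -0.34 after normexp correction, and the probe has a GC content of 18.3%. Pcdhga4 probe 1 read -7.80, -7.93, -7.70 and -9.16 in young fear mice, against -7.48, -6.88, -6.33 and -6.74 in young controls. It was well above background on 0 of these 8 arrays, so although it is counted among the 11 lower probes (adjusted p = 0.00352, and 0.0673 with quantile normalization), no size of change is given. The 3 single-isoform probes of Pcdha changed by 0.67 ± 0.55 (Pcdha4), -0.37 ± 0.19 (Pcdha6) and -0.18 ± 0.23 (Pcdha9), and none passed.

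Pcdhb had 11 calls among its 28 probes, 7 higher and 4 lower, spread along the cluster. Pcdhb22, the last gene of the cluster, read -1.77, -1.83, -2.26 and -2.16 in young fear mice, against -1.25, -1.0, -1.61 and -1.36 in young controls. The groups did not overlap, and it fell by 0.70 ± 0.12 (adjusted p = 7.7e-05). Pcdhb20 read 0.21, 0.21, -0.15 and 0.08 in young fear mice, against 0.53, 0.92, 0.69 and 0.52 in young controls, and fell by 0.58 ± 0.11 (adjusted p = 0.000154). Both falls passed under all 21 alternatives. Pcdhb9 read -2.73, -2.60, -2.58 and -2.99 in young fear mice, against -3.37, -3.80, -3.69 and -3.35 in young controls, a rise of 0.83 ± 0.16 (adjusted p = 0.000319) with no overlap. Pcdhb11 rose by 0.82 ± 0.13 (adjusted p = 2.69e-05), likewise with no overlap. After normexp correction Pcdhb9 did not pass (adjusted p = 0.716) and Pcdhb11 had a change of -0.19. The other Pcdhb calls were Pcdhb5 probe 1 (0.51), Pcdhb13 probe 1 (0.45), Pcdhb6 (0.39), Pcdhb17 probe 1 (0.35) and Pcdhb15 probe 1 (0.30), which rose, and Pcdhb4 (-0.45) and Pcdhb7 (-0.32), which fell. Of these 7, Pcdhb6 and Pcdhb17 probe 1 passed with array pairs as a random block and the other 5 did not. The probe of Pcdhb15 that starts 40 bases from probe 1, and overlaps it, changed by 0.09 ± 0.11 and did not pass.

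In all, 26 of the 75 probes had young fear arrays that did not overlap young controls, beside 42.0% of all probes. Against all 12 other arrays of the first run, young fear arrays lay above for 7 protocadherin probes and below for 9, beside 29.8% of all probes in either direction. Of these 16 probes, 9 were clustered and 7 nonclustered. The clustered ones include Pcdhga4 probe 1, which lay below but was not well above background on any young fear or young control array. The young fear group stood apart across the array, and its markers of choroid plexus and thalamus moved too. Of 25 measured choroid plexus markers 24 were lower and 0 higher in young fear mice, with mean levels per array of -2.10 to -1.18 against 0.91 to 1.36 in young controls. Of 16 thalamus markers 12 were higher and 1 lower, with -0.53 to -0.23 in young fear mice against -1.65 to -1.26 in young controls. Neocortex markers were mixed, with 2 higher and 3 lower of 7 measured and a median of 0.19. The part of these tissues in the protocadherin changes was not tested.

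In old mice fear conditioning gave 0 calls among the 75 probes in limma, beside 0.126% of all probes (49 of 38768, with 0.111% higher and 0.0155% lower), and 7 protocadherin probes had an unadjusted p under 0.05, beside 5155 of all probes. The medians were 0.04 for clustered and 0.09 for nonclustered probes, beside -0.07 for all probes. Changes here had a correlation with GC content of -0.34 across all probes and -0.46 across the 75 members. The part of GC content was not tested. The groups did not overlap at 8 of 75 probes, beside 7.68% of all probes. The smallest p was that of Pcdh9 probe 1, which read 1.74, 1.79, 1.69 and 1.98 in old fear mice, against 1.23, 1.60, 1.56 and 1.28 in old controls, a difference of 0.38 ± 0.11 (adjusted p = 0.171). At that probe every old fear array was the higher. Pcdh9 probe 2 read -1.64, -1.79, -1.84 and -1.81 in old fear mice, against -2.11, -2.0, -1.79 and -1.91 in old controls, with overlapping groups. Thalamus markers were higher in old fear mice too, at -0.58 to 0.11 against -1.68 to -0.89 in old controls, with 6 of 16 past the threshold, and their part was not tested. For choroid plexus markers 0 of 25 passed, at 0.74 to 1.09 in old fear mice and 0.91 to 1.55 in old controls.

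The difference between the responses at the 2 ages was tested directly, as the change in old mice minus that in young mice. It passed at 18 of 75 protocadherin probes (24.0%), 7 higher and 11 lower, beside 25.9% of all probes (14.3% higher and 11.5% lower). The difference was -1.38 ± 0.17 for Pcdh9 probe 2 (adjusted p = 6.57e-06), 1.61 ± 0.27 for Pcdh9 probe 3 (adjusted p = 0.000171) and -1.26 ± 0.24 for Pcdhg shared 1 (adjusted p = 0.000528). Both called Pcdh17 probes differed as well, by -0.86 ± 0.19 at probe 1 and 0.83 ± 0.18 at probe 2. The differences at both Pcdh9 probes passed under all 28 alternatives, whereas those at Pcdhg shared 1 and both Pcdh17 probes did not pass after normexp correction. For Pcdh8 the difference was -0.47 ± 0.19 and did not pass (adjusted p = 0.0717). Under the other scalings the split changed, to 6 higher and 14 lower with quantile normalization and likewise with median scaling.

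Age alone was compared between old and young handled controls. Here 4 protocadherin probes passed, 3 higher and 1 lower, or 5.33% of the 75 beside 0.547% of all probes (0.356% higher and 0.191% lower). Pcdhb3 read -0.83, -0.46, -0.56 and -0.59 in old controls, against -1.13, -1.04, -1.01 and -0.99 in young controls. The groups were apart, and the difference was 0.43 ± 0.09 (adjusted p = 0.0189). Pcdhb9 read -3.01, -2.25, -2.86 and -2.59 in old controls, against -3.37, -3.80, -3.69 and -3.35 in young controls, a difference of 0.87 ± 0.16 (adjusted p = 0.0119) with no overlap. Pcdhb6 read -0.09, 0.34, -0.11 and -0.02 in old controls, against -0.45, -0.68, -0.45 and -0.48 in young controls, 0.55 ± 0.11 higher (adjusted p = 0.0194), again with no overlap. Pcdh21, a photoreceptor protocadherin also called Cdhr1, read -1.47, -1.68, -1.23 and -1.20 in old controls, against -0.69, -0.61, -1.10 and -0.78 in young controls. It was lower in every old control, by 0.60 ± 0.13 (adjusted p = 0.0305). None of the 4 passed with slide as a replicate block (adjusted p = 0.0915 to 0.146), nor with array pairs as a random block, only the compared arrays or normexp correction. The count was 0 without young control replicate 2, 1 without old control replicate 4 and 2 without young control replicate 1. Groups did not overlap at 11 of 75 probes, beside 3.75% of all probes.

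The fear-conditioned mice of both ages are other animals, and the same 4 probes can be read in them. Pcdhb3 read -0.39, -0.46, -0.58 and -0.44 in old fear mice, against -1.04, -1.02, -1.01 and -1.03 in young fear mice. It was higher in every old array, by 0.55 ± 0.09 (adjusted p = 2.48e-05), and passed under all 21 alternatives. Pcdh21 read -1.41, -1.37, -1.23 and -1.26 in old fear mice, against -0.64, -0.76, -1.05 and -0.50 in young fear mice, lower by 0.58 ± 0.13 (adjusted p = 0.000912, and 0.117 after normexp correction). Pcdhb6 (-0.08 ± 0.11) and Pcdhb9 (-0.26 ± 0.16) did not pass in fear mice. At both of these probes the 4 young control arrays lay below all other arrays of the first run. The same arrays enter the change in young fear mice, the difference between control ages and the difference of the responses. For Pcdhb6 and Pcdhb9 these are therefore not separate results. In old minus young fear mice 29 of 75 probes passed (38.7%, beside 39.9% of all probes, of which 22.9% higher and 17.0% lower), 15 higher and 14 lower, or 13 higher and 19 lower with quantile normalization. Choroid plexus markers were higher in old fear mice at 23 of 25, and their part was not tested.

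**Figure D3:**
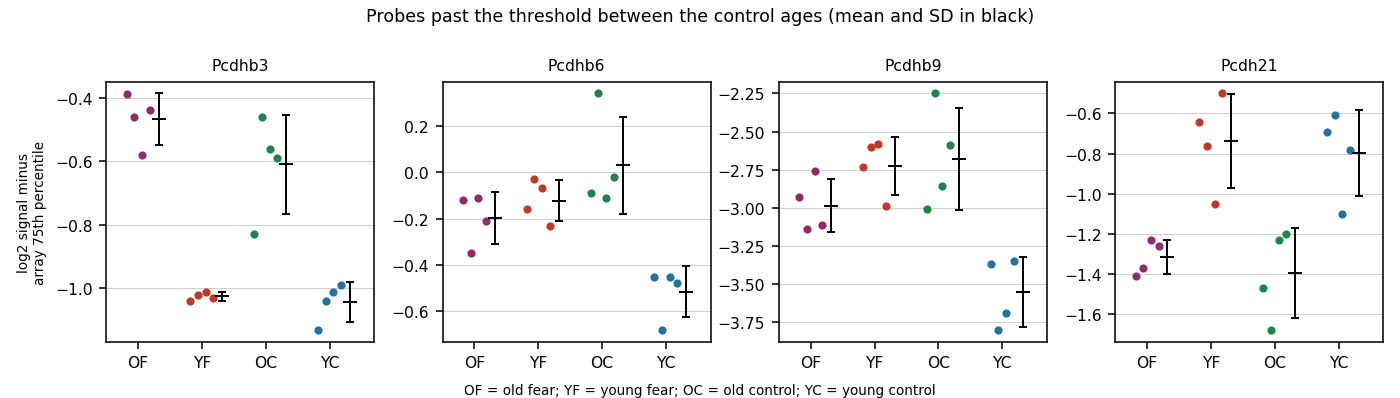
Log2 level relative to the array's 75th percentile (vertical axis) of the 4 probes that passed between old and young controls, in old fear, young fear, old control and young control mice, with the group mean and SD (n = 4) in black. Pcdhb3 is higher in all 8 old arrays than in all 8 young ones, and Pcdh21 is lower in all 8 old arrays, whereas Pcdhb6 and Pcdhb9 overlap between the fear groups.

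Clustered and nonclustered probes were then compared over the 6 groups. Each probe was set to its own mean over 24 arrays, and the median of the 45 clustered probes minus that of the 30 nonclustered probes was taken on each array. It was 0.15, 0.21, 0.23 and 0.12 in old fear mice and 0.33, 0.08, 0.26 and 0.29 in old controls. In young fear mice it was 0.01, 0.03, 0.04 and -0.02, and in young controls 0.01, 0.01, -0.02 and -0.08. The 8 old arrays were above the 8 young arrays of the first run, while fear and control arrays overlapped at each age.

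It was -0.27, -0.12, -0.44 and -0.21 in context mice and -0.12, -0.09, -0.10 and -0.18 in shock-context mice, below all other arrays. In old minus young controls the median change was 0.12 for clustered and -0.06 for nonclustered probes, beside 0.01 for all probes, a difference of 0.18 that ranged from 0.13 to 0.22 over the other scalings and background corrections. By cluster the medians were 0.11 for Pcdha, 0.14 for Pcdhb and 0.11 for Pcdhg. The classes also differ in base composition, with a median GC content of 41.7% in clustered and 37.5% in nonclustered probes. Across all 38768 probes the change between the control ages had a correlation of 0.23 with GC content, and across the 75 members 0.09. These correlations are across probes that share arrays, and the part of GC content was not tested.

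**Figure D4:**
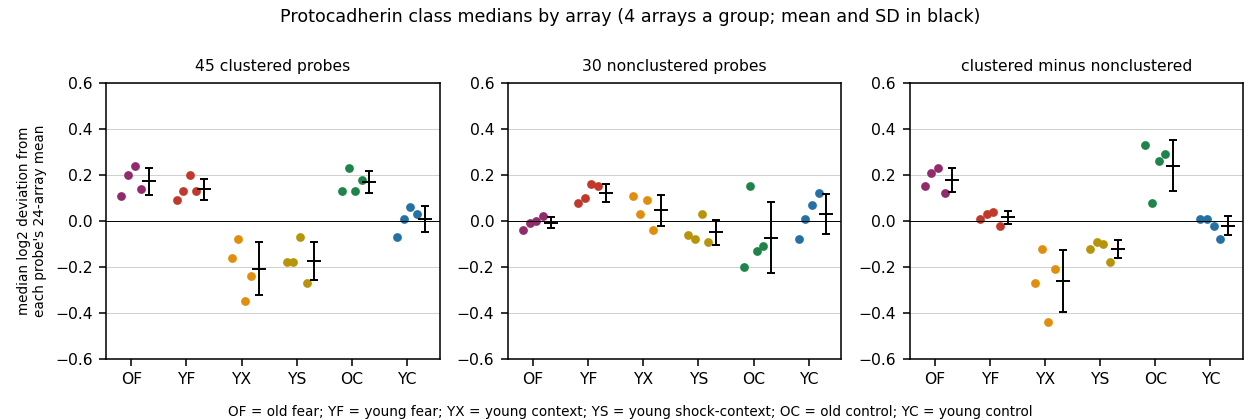
Median log2 deviation from each probe's 24-array mean (vertical axis) on each array for the 45 clustered probes, the 30 nonclustered probes and the difference of the 2 medians, by group, with the group mean and SD (n = 4) in black. The difference lies at 0.08 to 0.33 in old mice and at -0.08 to 0.04 in young fear and young control mice.

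The context and shock-context groups were compared with the young controls of the first run, and run and group cannot be told apart. In context mice 49 of 75 probes passed (65.3%, beside 68.8% of all probes, of which 18.4% higher and 50.4% lower), 16 higher and 33 lower, and in shock-context mice 44 did (58.7%, beside 65.4%, of which 16.1% higher and 49.3% lower), 14 higher and 30 lower. With quantile normalization these splits became 29 higher and 17 lower, and 29 higher and 13 lower. Groups did not overlap at 41 probes in context mice, beside 60.8% of all probes, and at 36 in shock-context mice, beside 59.8%. The share of calls was near that of the array in both. Of the 11 Pcdhg probes 7 were lower in each comparison, while 3 were higher in context mice and 2 in shock-context mice. Pcdhga1 read -4.08, -4.00, -5.39 and -4.95 in context mice and -5.01, -5.36, -4.27 and -4.42 in shock-context mice, against -2.91, -2.22, -2.04 and -2.46 in young controls.

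No second-run array reached a control array at Pcdhga1, and the changes were -2.19 ± 0.30 and -2.35 ± 0.30. Pcdhga9 (-2.23 and -2.12), Pcdhga7 (-1.67 and -1.70), the cluster probe named Pcdhg@ (-1.63 and -1.60) and Pcdhga4 probe 2 (-1.08 and -0.95) were also lower in both. Pcdhga4 probe 1 went the other way in context mice, at least 2.97-fold higher (adjusted p = 9.26e-05). It did not pass in shock-context mice (adjusted p = 0.0503). Pcdhg shared 1 was higher in both. The 6 shared probes of Pcdha and Pcdhg had changes of -0.46 to 1.10 in context mice and -0.37 to 0.89 in shock-context mice. The low-GC probe of Pcdhga12 was higher in both, by 2.26 and 2.02, but its sign turned after normexp correction. Pcdhb8 fell by 2.04 ± 0.20 in context mice and by 1.86 ± 0.20 in shock-context mice. Of the nonclustered genes, Pcdh24, which builds the brush border in gut and is also called Cdhr2, was not well above background at probe 1 on any second-run array. It was at least 4.96-fold lower in context mice (adjusted p = 2.26e-07) and at least 4.34-fold lower in shock-context mice (adjusted p = 4.52e-07), where the bound takes, per array, the higher of the probe's own level and the lowest level among probes well above background. Pcdh9 probe 3, which fell in young fear mice, was higher in context mice by 2.17 ± 0.19 and in shock-context mice by 1.86 ± 0.19. Pcdh9 probes 2 and 5, which rose in young fear mice, passed and were higher in both groups too. Probe 2 read -1.27 to -0.99 in context and -1.5 to -1.18 in shock-context mice, against -2.3 to -1.65 in young controls. Probe 5 read 0.72 to 0.95 and 0.61 to 1.06 in the same order, against 0.05 to 0.42. At Pcdh8 and Pcdh17 probe 1, which also rose in young fear mice, both groups overlapped young controls.

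Changes in the second run moved with base composition, as did those of fear conditioning in old mice. In context mice the median change of the 14 members over 50% GC was -0.44, beside 0.05 for the 39 members of 40% GC or less, and over all probes the same medians were -0.79 and -0.08. The part of GC content in the Pcdhg values was not tested.

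**Figure D5:**
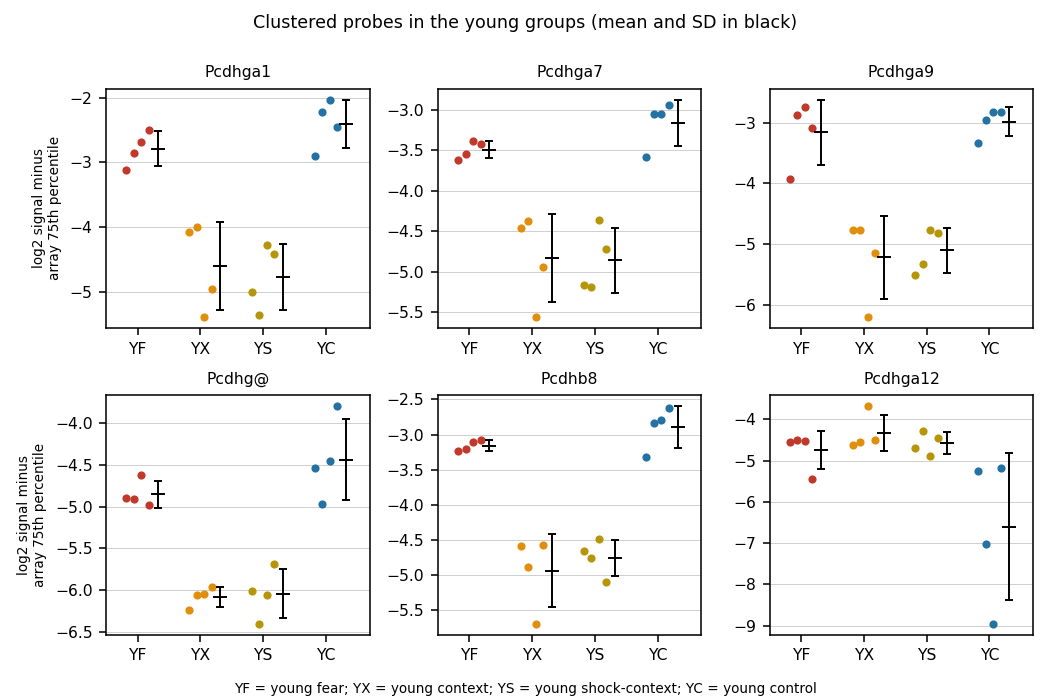
Log2 level relative to the array's 75th percentile (vertical axis) of 6 clustered probes in the 4 young groups, with the group mean and SD (n = 4) in black. For Pcdhga1, Pcdhga7, Pcdhga9, Pcdhg@ and Pcdhb8 all context and shock-context arrays, from the second scan run, lie below all young fear and young control arrays, from the first run.

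The shock-context and context groups shared slides and can be compared directly. Of 75 protocadherin probes 0 passed in limma, beside 0.0% of all probes, and with quantile normalization 2 of 38766 probes passed, none of them a protocadherin. An unadjusted p under 0.05 was reached by 2 protocadherin probes and by 2188 of all probes. The lowest was Pcdhga4 probe 1, at -5.38, -6.11, -5.75 and -7.12 in shock-context mice, against -4.94, -4.98, -5.27 and -5.17 in context mice, a difference of -1.0 ± 0.33 (adjusted p = 0.88). Every shock-context array was lower there. The medians were 0.02 for clustered and -0.08 for nonclustered probes, beside 0.01 for all probes, and the groups did not overlap at 3 of 75 probes, beside 6.98% of all probes.

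Genes that act with the protocadherins were read from 3 lists, at the probe with the highest mean for each gene. Other probes of these genes were not read. In young fear mice 38.8% of gene names with at least 2 called probes had calls in both directions. Of 18 measured regulators of the clustered genes, 4 rose and 4 fell in young fear mice, a share near the 44.6% called among all probes, with a median of 0.00 beside -0.27 for all probes. Setdb1, a histone methyltransferase that silences the cluster in neurons, rose by 1.04 ± 0.12 (adjusted p = 1.05e-06). Dnmt3a, a DNA methyltransferase, fell by 1.73 ± 0.28, and the cohesin loader Nipbl and the cohesin subunit Smc1a fell by 0.72 ± 0.12 and 0.60 ± 0.12. Of 32 partners and processing genes, 9 rose and 4 fell, beside 17.2% higher and 27.5% lower among all probes, with a median of 0.03. Nckap1, a subunit of the WAVE actin regulator that binds delta-protocadherins, rose by 1.31 ± 0.11, and the kinase Ptk2b, which clustered protocadherins bind and inhibit, rose by 0.76 ± 0.11. Pdcd10 fell by 0.78 ± 0.10. Of 38 other cadherins and catenins, 11 rose and 7 fell, again near the 44.6% of all probes, with a median of -0.12, among them Cdh12 (1.45 ± 0.13), Cdh19 (2.18 ± 0.20) and Ctnnd1 (1.85 ± 0.17), which rose, and Cdh8 (-1.36 ± 0.15), which fell. In old mice fear conditioning gave 0 calls in each of the 3 lists, beside 0.126% of all probes. In old minus young controls 0 passed in each list as well, beside 0.547% of all probes, so these counts are near the array's own.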

How the data were processed

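Hippocampal RNA of 24 mice (600 ng each, Cy3) was measured on 24 Agilent 1-colour arrays. Per the file headers, the deposited scanner files of the authors hold the intensity of each spot (the processed signal, already background-subtracted, and the mean and background signals). The deposited value table, taken as log2 from its values since no label states its scale, has a median of 8.57 in every column and served as an alternative. Per the submitters' processing notes, Agilent Feature Extraction and limma were used.

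The log2 of the processed signal, less the 75th percentile of the array it came from, was the level used. Control spots were dropped, outlier spots counted as missing and repeat spots of a probe averaged. A probe stayed in if the scanner called it well above background on 4 or more of 24 arrays. Group means of all 24 arrays were fitted with limma 3.58.1 (R 4.3.3; lmFit and eBayes, two-sided, 18 residual degrees of freedom, Benjamini-Hochberg over all kept probes) in 8 comparisons. The fit was tested on simulated data. The files carry an older (mm7) and a newer (mm9) annotation. Names and positions are those of the newer one, and probes named Pcdh in either were members (12 are named differently in the 2). Members, lists and tests were chosen with earlier results of these data known.

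Named are, per comparison and class, up to 5 rises and 5 falls past the threshold with every array of a group well above background, a fixed panel of single genes, all probes of genes with several, members not well above background, and up to 4 genes per list, of which 1 is not reported here. Same-numbered arrays of the first run share a slide. Of 24 such pairs 15 had deviations that correlated over 0.1 (range -0.42 to 0.65). The consensus correlation was 0.18 within slides and 0.37 within array pairs 1-2 and 3-4 of a first-run group. The main fit used no block and treated arrays as independent, and both blocks were used among the alternatives. Alternatives were quantile and median scaling, normexp with an offset of 50, the deposited values, 2 other filters, outlier spots kept, 1 probe per gene, the slide as fixed or random block, array pairs 1-2 and 3-4 as a random block, only the compared arrays, eBayes with trend and robust, and each array left out. No member had an outlier spot, so keeping such spots left the members' levels unchanged. The other filters and 1 probe per gene also left them unchanged, and altered only the set of probes fitted and adjusted over.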

Additional observations from a re-analysis of the deposited data

Results flagged for a closer look

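On single arrays, 1 of the 4 arrays of a group lay far from the other 3 for 21 of 378 tested combinations of group and probe or class median, and chance alone is taken to flag about 1 in 20. The level of the array that stood apart is given in brackets, in log2 relative to the array's 75th percentile. In the young fear group it was read at Pcdhga12 (-5.44) and Pcdhga4 probe 1 (-9.16). In the context group it was read at Pcdh15 probe 2 (-3.88), Pcdh17 probe 2 (3.69), Pcdha shared 1 (0.67), Pcdhb11 (-4.74), Pcdhb17 probe 1 (-1.45) and Pcdhga12 (-3.68). In the shock-context group it was read at Pcdh12 probe 1 (-1.44), Pcdh18 (-3.24) and Pcdhb2 (-5.74). In the young control group it was read at Pcdh17 probe 2 (3.32), Pcdh7 probe 1 (-3.85), Pcdha6 (-1.23) and Pcdhb6 (-0.68). In the old fear group it was read at Pcdh10 probe 2 (1.07), Pcdhb15 probe 2 (-2.59) and Pcdhb7 (-0.50). In the old control group it was read at Pcdh11x probe 2 (-4.20), Pcdhb4 (-1.13) and Pcdhb5 probe 1 (-1.50). 

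The response to fear conditioning differed between the ages at 18 protocadherin probes in limma, tested as the change in old mice minus that in young mice. The log2 difference was positive for Pcdh9 probe 3 (1.61), Pcdhga4 probe 1 (1.42), Pcdh15 probe 1 (1.01), Pcdh17 probe 2 (0.83), Pcdhb22 (0.80), Pcdhb20 (0.71), Pcdhb7 (0.51). It was negative for Pcdh9 probe 2 (-1.38), Pcdhg shared 1 (-1.26), Pcdhb9 (-1.13), Pcdh17 probe 1 (-0.86), Pcdh18 (-0.80), Pcdhb13 probe 1 (-0.77), Pcdhb6 (-0.63), Pcdhg shared 2 (-0.56), Pcdhb11 (-0.56), Pcdhg shared 3 (-0.46), Pcdhb17 probe 1 (-0.43). With array pairs as a random block 10 of 75 probes passed, and after normexp correction 4. Members were called at 24.0%, beside 25.9% of all probes. Pcdhga4 probe 1 was well above background on 0 young fear and 0 young control arrays, so the size of its difference is not interpretable.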

How the results depend on the processing

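With slide as a replicate block the calls were 31 in young fear minus young control, 0 in old fear minus old control, 20 for the difference of the responses, 0 in old minus young controls, 34 in old minus young fear and 0 in shock-context minus context. Replicate numbers stand for slides in the first run, and the main fit did not use them. Normexp gave 9 calls in young fear mice, 4 for the difference of the responses, 0 in old minus young controls, 16 in old minus young fear, 32 in context and 28 in shock-context mice. Array pairs as a random block gave 16 calls in young fear mice, 10 for the difference of the responses and 0 in old minus young controls. That last comparison had 2 calls with median scaling and 0 with only the compared arrays. With 1 probe per gene, which leaves 47 probes, there were 10 calls for the difference of the responses, 18 in old minus young fear, 30 in context and 26 in shock-context mice. In young fear mice 21 rose and 6 fell with the deposited values.

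The clustered minus nonclustered median moved to -0.04 for the difference of the responses and -0.16 in shock-context mice with the deposited values, to 0.29 in old minus young fear with quantile normalization, and with normexp to -0.07 in shock-context minus control and 0.02 in shock-context minus context. With each array left out, calls ranged from 21 to 28 in young fear mice, 0 to 0 in old fear mice, 15 to 21 for the difference of the responses, 0 to 4 in old minus young controls, 26 to 30 in old minus young fear, 43 to 51 in context, 39 to 46 in shock-context and 0 to 0 in shock-context minus context. The median difference, in the same order, ranged from -0.09 to 0.03, -0.07 to 0.03, -0.05 to 0.13, 0.17 to 0.22, 0.09 to 0.24, -0.35 to -0.24, -0.30 to -0.20 and 0.02 to 0.11.

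Among 125 named single-probe results under 2644 alternatives, 2396 kept direction and side of the threshold, 223 lost the call and 25 turned sign. These counts include alternatives that left the levels of the probes unchanged. With normexp, Pcdhb11 read -0.19 in young fear, -0.59 in context, -0.57 in shock-context, 0.76 in old minus young fear and 0.37 for the difference of the responses. Pcdhga12 read -0.34 in young fear, -0.45 in context and -0.53 in shock-context mice, and Pcdh18 -0.12 in young fear, 0.39 in old minus young fear and 0.03 for the difference of the responses. In context and shock-context mice, in that order, Pcdh11x probe 2 read -0.06 and -0.19 and Pcdhb2 -0.49 and -0.71, Pcdhga4 probe 1 read -0.76 in context mice, and Pcdh7 probe 2 read 0.60 in old minus young fear. With quantile normalization Pcdhb19 probe 2 read 0.21 in context and 0.17 in shock-context mice, where Pcdhb13 probe 2 read 0.03 and Pcdhgb4 0.58. With the deposited values Pcdhb19 probe 2 read 0.02 in both and Pcdhgb4 0.09 in shock-context mice, and with median scaling Pcdha shared 3 read 0.01 there. The causes were not tested. Of the 75 probes 10 were not well above background on all arrays. With only probes that were, the same levels were fitted, so the direction was fixed in advance. All 110 named results tested there kept their side of the threshold. Normexp, which changes the levels, turned 17 and took the call from 42.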
